A study of Homo sapiens with 16 samples.

Results

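Transcripts recovered with mir1180-3p were taken from 2 of the 16 libraries of a RISC-trap series in HEK 293 cells, an established transformed line from human embryonic kidney. The assay expresses a dominant-negative GW182 (encoded by TNRC6A), which keeps bound mRNAs from leaving the RNA-induced silencing complex (RISC) loaded with a chosen microRNA (miRNA), and the complex is then precipitated with its RNA. Both mir1180-3p libraries were set against 10 libraries of the same design, 2 each for mir550-3p, mir3613-5p, mir1301-3p, mir1271-5p and mir1260a-5p, with the reference defined as the mean of those 5 group means. The 4 libraries of mir124-3p were left out. All 12 libraries used shared the cell line, the trap, Trizol extraction, polyA RNA and a SOLiD library kit, and they differed, per the labels, in the miRNA. No library without a miRNA is named in the labels, so a transcript that every one of these miRNAs recovered would not appear as higher, and an increase means higher than the other 5 pulldowns. Column headers of mir550-3p and of replicate 2 of mir1301-3p contain the letters bio, and those of mir1180-3p do not. The labels do not otherwise say whether the libraries of a miRNA came from separate cultures. The p-values therefore measure the spread between libraries, which may be technical. Input RNA of the same cells was not analysed here, and a larger share in a pulldown and a higher level in the cells cannot be told apart.

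A miRNA guides RISC to mRNAs that pair with it, chiefly through its seed, bases 2 to 8 counted from its 5′ end. The protein GW182 binds the Argonaute protein of the complex and recruits the enzymes that shorten the poly(A) tail, which leads to repression and decay of the mRNA. Sites in the 3′ untranslated region are the best known, while sites in coding sequence and in the 5′ untranslated region also occur. The mature sequences are shown because the seeds are compared with the recovered mRNAs below, and the seed of each is in capitals. They are the RefSeq entries of the GRCh38.p14 assembly, read by name. The entry for mir1260a-5p is named hsa-miR-1260a, and hsa-miR-550a-3p was taken for mir550-3p because the column headers of the table name 550a. Which oligonucleotides were put into the cells is not stated in the labels.
mir1180-3p: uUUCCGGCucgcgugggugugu
mir1260a-5p: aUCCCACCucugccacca
mir1271-5p: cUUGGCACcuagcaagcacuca
mir1301-3p: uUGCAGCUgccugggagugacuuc
mir3613-5p: uGUUGUACuuuuuuuuuuguuc
mir550-3p: uGUCUUACucccucaggcacau
All 6 seeds differ. The mature mir1180-3p lies in the gene MIR1180 at chr17:19344513-19344534 on the minus strand. A DNA match to its seed reads GCCGGAA, and the central letters CCGGAA are also the core of the motif bound by ETS transcription factors, which is common near gene starts.

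The mir1180-3p libraries held 12979758 and 9448775 counts, and the 10 reference libraries between 7612758 and 17972321. Levels are given in CPM, the counts of a gene per 1000000 counts of the library. A count of 0 in them allows a level of up to 3 counts, which is 0.231 and 0.318 CPM and covers counting error only. The 100 genes with the most counts took 25.7% and 26.5% of the counts with mir1180-3p and between 13.9% and 19.9% in the other 10. CPM of genes are scaled by trimmed means of M values, and sums over a list are per total count of the library. Across 17658 genes, the deviations of replicate 1 and replicate 2 from the mean of the 6 miRNAs had a Pearson correlation of 0.31, and those of replicate 2 with replicate 1 of mir1301-3p had 0.33. Genes share their libraries and are not independent replicates. The list of 12 genes typical of HEK 293 summed to 1744 and 1344 CPM with mir1180-3p and to between 1276 and 1990 CPM in the other 10, and no member of it was called by edgeR or DESeq2 or had an unadjusted p under 0.05. TNRC6A, which encodes the protein of the trap, did not differ detectably, at a log2 fold change of 0.13 ± 0.25 (SE, edgeR adjusted p = 0.86).

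With mir1180-3p the recovered RNA contained far more of a few mRNAs than the other pulldowns did. The edgeR quasi-likelihood test called 339 of 17658 genes higher (1.92%) and 27 lower (0.153%) at a Benjamini-Hochberg adjusted p under 0.05, or 366 in either direction (2.07%). The higher genes had a median log2 fold change of 1.90 and the lower ones -1.74, beside -0.07 over all genes tested. Of the higher genes 143 were at least 4-fold and 25 at least 8-fold above the reference, and of the lower genes 5 were at least 4-fold below it. Both mir1180-3p libraries lay above all 10 others for 492 genes (2.79% of those tested), of which 261 were called, and below all 10 for 379 (2.15%), of which 24 were called. The higher genes together took 16.9% and 18.8% of all counts in the mir1180-3p libraries, and between 2.67% and 3.21% in the other 10. Because these genes were chosen by their difference in the same libraries, that gap is a description of its size. RPL19, RPS20 and RPL14 alone made up 8.36% and 8.51% of the counts with mir1180-3p and between 0.279% and 0.699% elsewhere. Leaving out replicate 1 of mir1180-3p left 171 higher genes, of which 156 were among the 339, and leaving out replicate 2 left 170, of which 159 were among them.

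A small share of the higher genes carried a match to the mir1180-3p seed near the transcription start, and that share was larger than among all genes. Start windows of RefSeq, with 250 bases before and 50 bases after the start, were found for 13885 of the genes tested, among them 262 of the 339 higher and 22 of the 27 lower genes. In the first 50 transcribed bases GCCGGAA stood in 19 of the 262 higher genes (7.25%), against 91 of all 13885 (0.655%), and in 0 of the 22 lower genes. Seen from the other side, 20.9% of the 91 genes with a match were called higher, against 1.76% of the 13794 without and 1.89% of all with a window. The median log2 fold change of the 91 was 0.29, and 60 of them (65.9%) had a positive value, while over all genes with a window the median was -0.09 and 43.2% were positive. Of the 91, 25 had both mir1180-3p libraries above all 10 others, against 359 of the 13794 without a match. A match is a description of these letters and not evidence that the site was bound, no test was made of the shares, and sequence further into the transcripts, including the 3′ untranslated regions, was not analysed here.

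A 7-base frame was slid along the whole miRNA to set the seed beside its other stretches. Among 16 such frames, each searched as the reverse complement on the transcribed strand, bases 2 to 8 were found in the largest share of higher genes, and every other frame in at most 2.29% of them. Bases 1 to 7 were matched in 3 higher genes and in 29 of all (1.15% and 0.209%). Bases 3 to 9 were matched in 5 and 153 (1.91% and 1.10%), and bases 4 to 10 in 6 and 362 (2.29% and 2.61%). Neighbouring frames overlap in their letters, so their counts are not separate. The seed match also holds CCGGAA, the ETS core, and whether these matches mark miRNA sites or promoter motifs was not tested. Matches to part of the seed stood nearer to their background. Genes that matched bases 2 to 7 (CCGGAA) but not base 8 made up 1.15% of the higher and 1.60% of all genes, and genes that matched bases 3 to 8 (GCCGGA) but not base 2 made up 4.20% and 2.84%. In these windows the seed of mir1260a-5p was matched in 0.382% of the higher and 0.627% of all genes, and that of mir1301-3p in 1.15% and 0.835%. Matches for mir1271-5p, mir3613-5p and mir550-3p were too few among all genes to show a pattern either way. The other 5 miRNAs form the reference here, so their seeds are not a separate control. Their matches GGTGGGA (mir1260a-5p), GTGCCAA (mir1271-5p), AGCTGCA (mir1301-3p), GTACAAC (mir3613-5p) and GTAAGAC (mir550-3p) were in 1, 1, 3, 0 and 0 of the 262 higher genes and in 87, 19, 116, 11 and 7 of all.

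**Figure D1:**
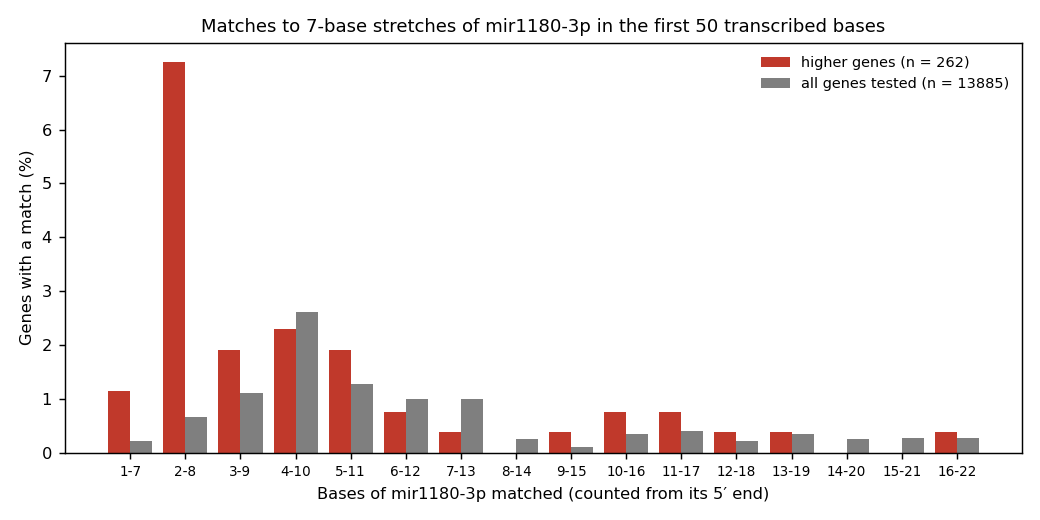
Share of genes, in percent, whose first 50 transcribed bases match each 7-base stretch of mir1180-3p (x axis, bases counted from the 5′ end), for the 262 higher genes (red) and all 13885 genes tested with a window (grey). The pair of bars at bases 2 to 8 stands at 7.25% and 0.655%, and no other red bar passes 2.29%.

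The match was unevenly spread by distance from the start and by strand. In the 50 bases before the start it was in 11 higher genes and 232 of all (4.20% and 1.67%). From 51 to 100 bases before the start the shares were 1.15% and 0.907%, and from 201 to 250 bases before it 0 of the 262 higher genes had a match, against 0.367% of all. So the share among the higher genes was greatest after the start, where the share among all genes was lower than just before it. On the other strand of the first 50 bases, where the letters read TTCCGGC, the match was in 1 higher gene and 150 of all (0.382% and 1.08%). The GC content of the 50 bases was much the same, with a median of 65.0% in the higher genes and 66.0% in all. Starts differ between annotations and cell types, so some matches counted before the start may be transcribed in HEK 293 and some after it may not. Taking any start that RefSeq lists for a gene, chosen as an alternative after the data were seen, gave 22 higher genes of 262 (8.40%) and 113 of all (0.814%).

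**Figure D2:**
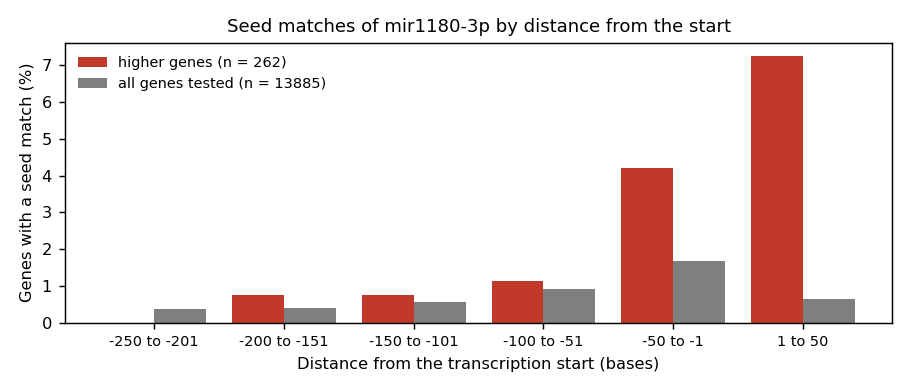
Share of genes, in percent, with GCCGGAA on the transcribed strand in each 50-base bin from 250 bases before to 50 bases after the annotated start, for the 262 higher genes (red) and all 13885 genes with a window (grey). The higher genes stand at 4.20% just before and 7.25% just after the start, and at no more than 1.15% in the bins further away.

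The 19 higher genes with the match came from many pathways, and 13 of their sites follow, with the match in capitals, up to 12 bases before it and up to 6 after it, 5′ to 3′ on the transcribed strand. They are shown because they are the stretch that the annotated starts of all these genes share. They were read from the genome after 1 annotated start per gene, and their presence in the recovered mRNAs was not tested. Coordinates are GRCh38.p14, with the strand in brackets.
DNAJC17, chr15:40807443-40807467 (-): cgaatccgtcagGCCGGAAccatgg
PUS3, chr11:125903165-125903189 (-): gcgcggccggctGCCGGAAagtaag
EEF1E1, chr6:8102517-8102541 (-): ccaggagctacgGCCGGAAgatggc
SYF2, chr1:25232484-25232502 (-): cttgttGCCGGAAgtggga
TMEM69, chr1:45688181-45688197 (+): acttGCCGGAAgtgcct
FTSJ1, chrX:48476208-48476232 (+): aggtcccggcccGCCGGAAcctggg
NCAPD2, chr12:6494111-6494135 (+): ttcagcctgactGCCGGAAtcagag
ACOT8, chr20:45857380-45857392 (-): GCCGGAAgagtca
SSBP1, chr7:141738350-141738370 (+): cgttccctgtgcGCCGGAAgt
PIGS, chr17:28571497-28571521 (-): gtggccggagcaGCCGGAAgctagc
KRI1, chr19:10565985-10566009 (-): cagaaccgccatGCCGGAAccgcgc
DCTN5, chr16:23641466-23641485 (+): ggaagtaGCCGGAAtctctg
RPL21, chr13:27251558-27251577 (+): cctttcgGCCGGAAccgcca
The other 6 were CCKBR, CHCHD5, TMEM218, ALDH18A1, C1orf123 (now CZIB) and LEPROT. Counted from the annotated start, the match began between base 1 (ACOT8) and base 44 (ALDH18A1). It began within the first 20 bases in 11 of the 19, against 55 of all 91 genes with a match. An A just after the match, opposite base 1 of the miRNA, was present in 2 of the 19, PUS3 and C1orf123, and in 6 of the 91.

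In all 19 of these genes both mir1180-3p libraries lay above all 10 others, and their log2 fold changes ran from 1.10 to 3.02 with a median of 1.96. They were chosen for being called, so these values describe their size. Several act on tRNA or RNA. EEF1E1, a scaffold subunit of the aminoacyl-tRNA synthetase complex, stood at 951 and 1200 CPM in the mir1180-3p libraries and between 88.5 and 284 CPM, with a median of 167, in the other 10. Its log2 fold change was 2.67 ± 0.24 (SE, edgeR adjusted p = 2.5e-06). The groups are wide apart, and both mir1180-3p replicates are alike. PUS3, which makes pseudouridine in tRNA, stood at 142 and 215 CPM against a range of 16.4 to 47.3 CPM with a median of 25.0, a log2 fold change of 2.69 ± 0.25 (adjusted p = 3.5e-06). FTSJ1, which methylates the ribose of tRNA nucleosides, had 390 and 411 CPM against 54.8 to 119 CPM with a median of 79.2, a log2 fold change of 2.24 ± 0.24 (adjusted p = 1.7e-05). SYF2, a splicing factor, had 325 and 501 CPM against 42.6 to 142 CPM with a median of 69.7, a log2 fold change of 2.46 ± 0.25 (adjusted p = 9.2e-06). In each of these 4 genes the lower mir1180-3p library was above the highest of the 10 others.

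Further matched genes serve mitochondria, chromosomes and membranes. SSBP1, which binds single-stranded mitochondrial DNA, stood at 1096 and 1540 CPM against 184 to 931 CPM with a median of 283. Its log2 fold change was 1.96 ± 0.25 (adjusted p = 0.00012), and replicate 2 of mir550-3p came close to the lower mir1180-3p library. NCAPD2, a subunit of condensin I, had 164 and 154 CPM against 27.0 to 42.9 CPM with a median of 36.9, at a log2 fold change of 2.16 ± 0.24 (adjusted p = 2.6e-05). DNAJC17, a J-domain co-chaperone, was a rare transcript, with 11.3 and 22.6 CPM against 0.694 to 3.21 CPM and a median of 2.21. At 3.02 ± 0.43 it had the largest log2 fold change of the 19 (adjusted p = 0.00034), and without replicate 2 it was not called. ACOT8, a peroxisomal acyl-CoA thioesterase whose match begins at the annotated start, stood at 123 and 157 CPM against 20.3 to 58.3 CPM. Its reference median was 36.8 CPM and its log2 fold change 1.99 ± 0.27 (edgeR adjusted p = 0.0002). Smaller increases were those of PIGS, a subunit of the enzyme that attaches GPI anchors (1.73 ± 0.24), the nucleolar protein KRI1 (1.57 ± 0.25) and the dynactin subunit DCTN5 (1.52 ± 0.24). For DCTN5 both mir1180-3p libraries stood at 137 CPM, above a range of 26.0 to 73.1 CPM. Calls of CCKBR, CHCHD5, TMEM218, ALDH18A1, C1orf123, RPL21 and LEPROT were lost in 1 or more of the 26 other settings, in each case with 1 mir1180-3p library left out among them.

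**Figure D3:**
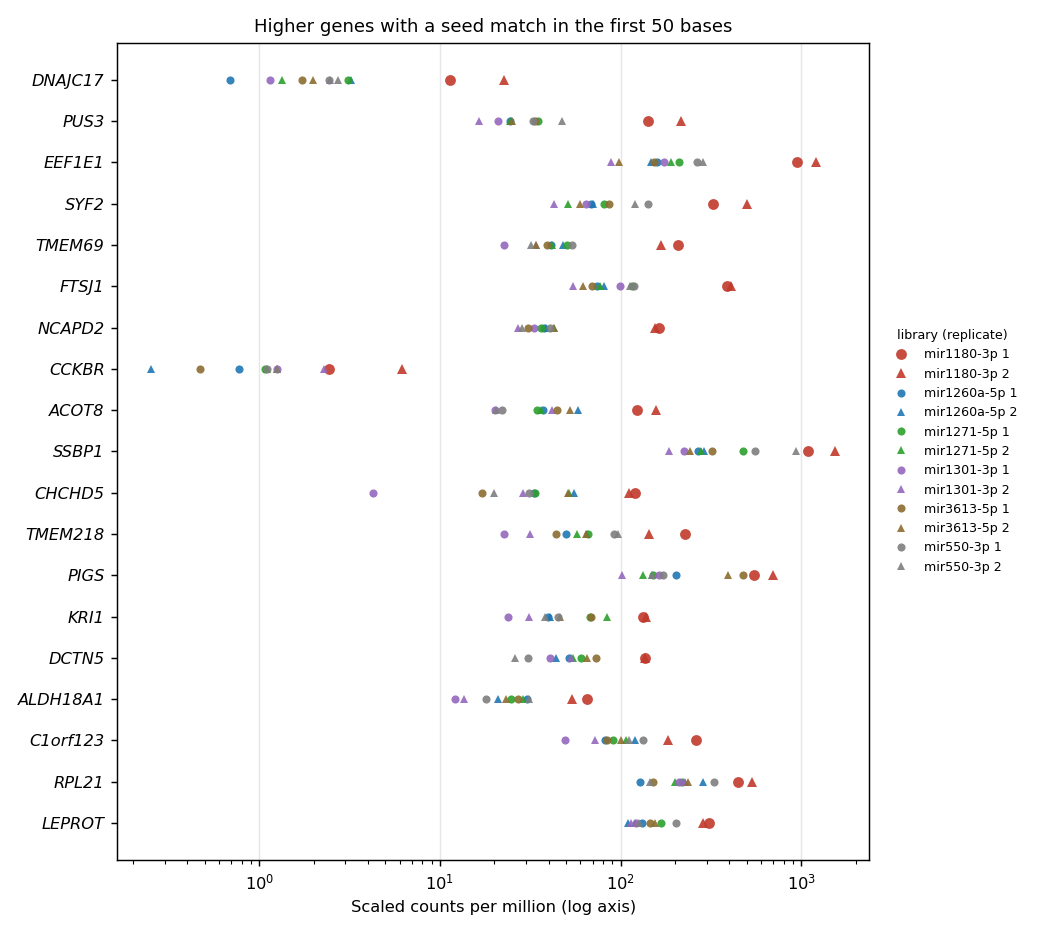
Scaled CPM (log axis) in each of the 12 libraries for the 19 higher genes with a seed match in the first 50 transcribed bases, ordered by log2 fold change. Large red symbols are the mir1180-3p libraries (circle replicate 1, triangle replicate 2), and in every row both lie to the right of all 10 small symbols of the other 5 miRNAs.

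Most higher genes had no such match, the leading ones included. Of the 24 genes with the largest increase that met the naming rule, 17 had a window and 0 had the match. By level, the match was present in 2 of 69 higher genes whose median in the other 10 libraries was under 5 CPM (2.90%) and in 17 of 193 at 5 CPM or more (8.81%). Over all genes with a window it was in 0.349% and 0.806% of these classes. In the remaining 243 higher genes with a window these letters were absent from the first 50 bases, which says nothing of the rest of the transcript.

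The genes named by rule, with a mean of at least 5 CPM and both mir1180-3p libraries above all 10 others, included 3 ribosomal proteins and 2 proteins of ribosome assembly among the 24 largest increases. Outside the rule C1orf185 (6.49), CD5 (4.51) and KRTAP12-3 (4.21) also had log2 fold changes above 4, named here after their values were seen, and each was either rare or overlapped by another library. RPL19, a protein of the large ribosomal subunit, stood at 57357 and 50527 CPM with mir1180-3p, and between 1276 and 3327 CPM with a median of 1891 in the other 10. Its log2 fold change of 4.70 ± 0.25 was the largest among the genes named by rule (SE, edgeR adjusted p = 5.2e-09). By itself it took 5.26% and 4.92% of all counts in these libraries. RPS20, of the small subunit, stood at 24012 and 27669 CPM against 791 to 3210 CPM with a median of 1610, a log2 fold change of 4.03 ± 0.27 (adjusted p = 8.4e-08). RPL14, of the large subunit, stood at 9855 and 9251 CPM against 469 to 1469 CPM with a median of 1102, a log2 fold change of 3.30 ± 0.32 (adjusted p = 6.5e-06). For all 3 the groups are several times further apart than the libraries within either group. RPL4, RPL13 and RPL21 were higher by less, at 1.63 ± 0.24, 1.35 ± 0.31 and 1.21 ± 0.30. Without replicate 2 these values were 1.38, 1.10 and 1.07, and the calls were lost. RPL13 lost its call in 5 and RPL21 in 10 of the 26 other settings. Leaving out replicate 1 and scaling by library totals alone were among them for both genes. Those 6 were the only members called among the 80 cytosolic ribosomal protein genes tested, with 0 lower, beside 1.92% and 0.153% over all genes, and the 80 had a median log2 fold change of -0.11, close to the -0.07 of all genes. Of 10 paralogs of ribosomal proteins tested 0 were higher and RPL7L1 was lower (-1.47 ± 0.35, adjusted p = 0.031). Genes of ribosomal proteins have many processed copies in the genome, and the labels do not say how the authors' counting shared reads among them, so these values are uncertain.

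Among the genes named by rule DCAF13 came next. It belongs both to the small-subunit processome, which matures ribosomal RNA in the nucleolus, and to the substrate receptors of the CUL4-DDB1 ubiquitin ligase. Its level was 1921 and 2149 CPM with mir1180-3p, against 49.4 to 149 CPM with a median of 117, a log2 fold change of 4.32 ± 0.24 (adjusted p = 7.1e-09). DNTTIP2, another processome protein, stood at 4910 and 6405 CPM against 155 to 800 CPM with a median of 523, a log2 fold change of 3.54 ± 0.28 (adjusted p = 5.9e-07). LSG1, a GTPase of late large-subunit maturation, stood at 106 and 83.9 CPM against 13.7 to 53.7 CPM with a median of 26.2, a log2 fold change of 1.69 ± 0.31 (adjusted p = 0.0043). In these 3 genes both mir1180-3p libraries lay above all 10 others, though LSG1 was not called without replicate 1. They were the called members among the 123 genes of nucleolar ribosome assembly, a count near the 1.92% of all genes, and the median of that list was -0.29. GTF3A, the factor that starts transcription of 5S ribosomal RNA, stood at 3669 and 3134 CPM against 257 to 1002 CPM with a median of 415 (2.82 ± 0.24, adjusted p = 1e-06). Of the 20 subunits and factors of RNA polymerase I 0 were called by edgeR and 4 were lower at an unadjusted p under 0.05. The share of all genes at that unadjusted threshold is not given here, so no difference is read from the 4. DESeq2 called 2 of the 20 lower, beside 201 lower over all genes. Of 35 genes of the CUL4-DDB1 ligase and its receptors DCAF13 alone was called by edgeR. Translation factors and other mRNAs of the 5′ terminal oligopyrimidine class had 1 of 58 called, EEF1E1 from the seed-matched set, and a median of 0.03. In the mitochondrial ribosome MRPS35 was higher (1.36 ± 0.28) and MRPL14 lower (-1.54 ± 0.38) among 78 genes, beside 1.92% and 0.153% over all genes. Neither had both mir1180-3p libraries beyond all the others or kept its call when either library was left out.

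**Figure D4:**
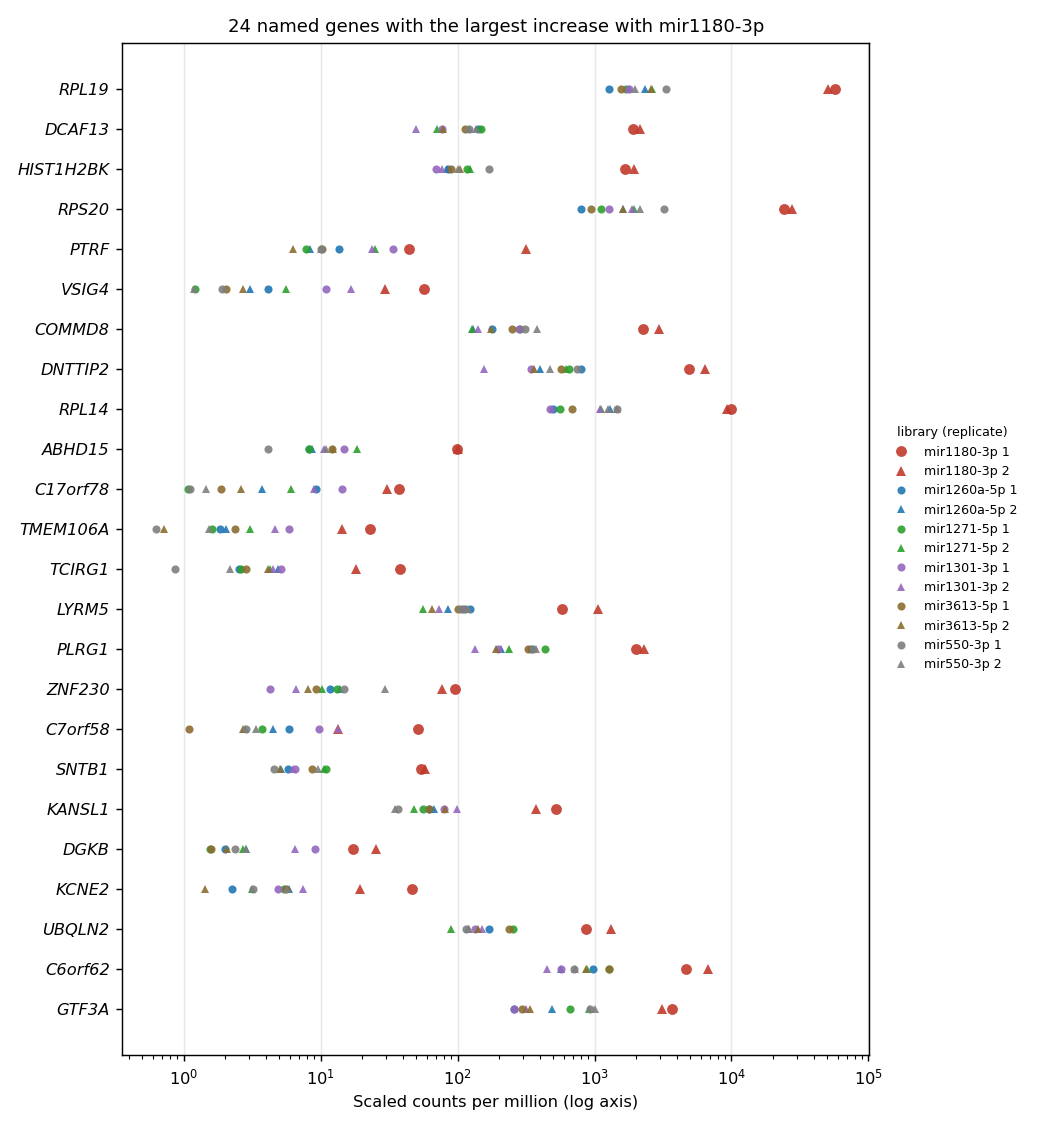
Scaled CPM (log axis) in each of the 12 libraries for the 24 named genes with the largest increase, ordered by log2 fold change. Large red symbols are the mir1180-3p libraries; RPL19 stands at 57357 and 50527 CPM against at most 3327 CPM elsewhere, while the purple symbols of mir1301-3p come nearest in the rarer transcripts such as C17orf78 and TMEM106A.

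Among the leading genes of other roles, COMMD8 stood at 2250 and 2942 CPM against 128 to 382 CPM with a median of 213. COMMD proteins, with CCDC22 and CCDC93, form a complex that returns membrane proteins from endosomes. The log2 fold change of COMMD8 was 3.57 ± 0.27 (adjusted p = 4.4e-07). It was the called member among 15 genes of that complex, beside 1.92% called higher over all genes, and their median was -0.12. HIST1H2BK (now H2BC12), an H2B histone gene, stood at 1663 and 1938 CPM against 69.3 to 168 CPM with a median of 95.1, a log2 fold change of 4.18 ± 0.21 (adjusted p = 3.5e-09). Of the 46 replication-dependent histone genes tested, HIST1H2BE and HIST1H2BM were called as well, beside 1.92% called higher over all genes. These 2 had only 3 and 55 counts and 25 and 10 counts in the mir1180-3p libraries. HIST1H2BE stood at 0.06 without replicate 2, HIST1H2BM was not called when either was left out, and the median of the list was -0.55. These histone genes are near-identical in sequence and their counts are uncertain. The spliceosome protein PLRG1 stood at 2004 and 2298 CPM against 134 to 437 CPM with a median of 284 (2.99 ± 0.26, adjusted p = 1.3e-06). KANSL1, a scaffold of the NSL histone acetyltransferase complex, stood at 526 and 375 CPM against 34.7 to 99.0 CPM with a median of 62.2 (2.91 ± 0.22, adjusted p = 4.4e-07). UBQLN2, which shuttles ubiquitinated proteins to the proteasome, stood at 873 and 1310 CPM against 89.5 to 255 CPM with a median of 138 (2.85 ± 0.28, adjusted p = 7.4e-06). In none of these 3 genes did a reference library reach the lower mir1180-3p library. LYRM5 (now ETFRF1), a mitochondrial regulator of electron transfer flavoprotein, and C6orf62 had log2 fold changes of 3.12 ± 0.27 and 2.84 ± 0.24.

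Rarer transcripts among the leading genes varied more, and mir1301-3p often came next. PTRF (now CAVIN1), a coat protein of caveolae, the small pits of the plasma membrane, stood at 44.0 and 316 CPM against 6.29 to 33.8 CPM with a median of 10.2. Its log2 fold change was 3.75 ± 0.42 (adjusted p = 2.5e-05), and 1.71 with no call when replicate 2 was left out. SDPR (now CAVIN2) stood at 9.08 and 43.4 CPM, below replicate 1 of mir1301-3p at 49.2 CPM, and its 2.59 ± 0.49 was also lost without replicate 2. PACSIN3, a membrane-bending protein at caveolae, stood at 36.8 and 55.7 CPM against 6.65 to 26.0 CPM (1.64 ± 0.29, adjusted p = 0.0034). Replicate 2 was the higher one for all 3, and without it PACSIN3 was not called either (1.32). These were the called members among 11 caveolar genes, beside 1.92% of all genes called higher, and the median of the 11 was near 0. ABHD15, an α/β hydrolase, was steadier, at 99.1 and 101 CPM against 4.10 to 18.6 CPM with a median of 10.8 (3.25 ± 0.30, adjusted p = 3.6e-06). SNTB1, a syntrophin of the dystrophin complex, stood at 54.0 and 58.1 CPM against 4.57 to 10.9 CPM (2.97 ± 0.29). C17orf78, TMEM106A, TCIRG1, C7orf58 (now CPED1), DGKB and KCNE2 had log2 fold changes between 2.89 and 3.17, and the highest reference library for each of these 6 was of mir1301-3p. Without replicate 1, TCIRG1 was 2.50 and still called, while C7orf58 (1.71) and KCNE2 (2.13) were not. Of the 261 higher genes that lay above all 10 others, a mir1301-3p library came next in 60, and in 31 of the 45 whose median in the other 10 was under 5 CPM. At 100 CPM or more it came next in 5 of 58, with mir550-3p in 20 and mir3613-5p in 17. How often a mir1301-3p library was the highest of the 10 over all genes at these levels is not given here. The correlation of 0.33 between replicate 2 and replicate 1 of mir1301-3p stands beside these counts, and its part in the rarer increases was not tested. Leaving mir1301-3p out of the reference gave 362 higher genes.

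VSIG4, a complement receptor of macrophages, stood at 56.7 and 29.6 CPM against 1.20 to 16.6 CPM with a median of 2.87, a log2 fold change of 3.58 ± 0.38 (adjusted p = 1.3e-05). It was the called member among 19 tested markers of macrophages and blood, beside 1.92% called higher over all genes. The list summed to 90.7 and 77.4 CPM with mir1180-3p and to between 21.4 and 94.7 CPM in the other 10. Its median log2 fold change was 0.56. No marker of that list was at 0 in both mir1180-3p libraries, and their part in the result was not tested. Of the 14 markers of fibroblasts and mesenchyme, 16 of neurons and glia and 9 of liver and keratinocytes that were tested, edgeR called 0, with 1 at an unadjusted p under 0.05, and DESeq2 called 0. Their medians were -0.33, -0.22 and -0.03.

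Genes of the cell cycle, of transcription and of neural development were called in small numbers. In the G1/S list RBL1, the pocket protein p107, stood at 110 and 116 CPM against 6.55 to 34.9 CPM with a median of 19.5 (2.60 ± 0.32, adjusted p = 5.8e-05). RRM2, of ribonucleotide reductase, was called with it, out of 49 genes, at 1.79 ± 0.29. In the G2/M list WEE1, the kinase that restrains CDK1, stood at 1975 and 2738 CPM against 275 to 533 CPM with a median of 416 (2.51 ± 0.26, adjusted p = 1.1e-05). CDC20, an activator of the anaphase-promoting complex, was the other of 46, at 1.41 ± 0.29. RRM2 was not called without replicate 1 (1.20), and CDC20 not without replicate 1 (1.42) or replicate 2 (1.40). RBL1 and WEE1 were well separated from every reference library, RRM2 was not, and the medians of the lists were -0.25 and -0.15. Of 502 ZNF genes tested 12 were higher (1.92% over all genes) and 0 lower, with a median of -0.02. ZNF230 led them, at 96.1 and 77.1 CPM against 4.26 to 29.6 CPM with a median of 11.0 (2.98 ± 0.27). ZNF101 stood at 143 CPM in both libraries, but replicate 1 of mir1271-5p reached 118 CPM beside a median of 20.3 (2.47 ± 0.27). ZNF713, ZNF440 and ZNF280B had 2.40 ± 0.42, 1.85 ± 0.28 and 1.30 ± 0.23. ZNF713 was not called without replicate 2, nor ZNF280B when either library was left out.

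In the axon guidance list 3 of 85 genes were higher, the netrin receptor DCC, the semaphorin effector DPYSL2 and the BMP co-receptor RGMB. DPYSL2 stood at 106 and 124 CPM against 22.6 to 61.7 CPM with a median of 39.9 (1.58 ± 0.28, adjusted p = 0.0035), and RGMB had 1.11 ± 0.26. DPYSL2 was not called without replicate 2 (1.46), nor RGMB without replicate 1 (0.79) or replicate 2 (1.36). DCC stood at 7.23 and 62.8 CPM beside a reference range of 1.57 to 12.8 CPM, so its 2.99 ± 0.48 rested on replicate 2, without which it was 0.72 and not called. Among 91 chromatin regulators MLL5 (now KMT2E) was higher (1.14 ± 0.23) and RING1 lower, and neither call held when either mir1180-3p library was left out. Of the 62 genes of cortical progenitors and neurogenesis, 38 of the Notch pathway, 55 of the Wnt pathway, 37 of the RISC and miRNA machinery and 13 replication-independent histones, edgeR called 0, with medians between -0.16 and 0.03. Over the 200 different genes of these 5 lists 11 were higher and 16 lower at an unadjusted p under 0.05. The share of all genes at that unadjusted threshold is not given here, so no difference is read from those counts. DESeq2 called 3 of the 200 higher and 2 lower, beside 492 higher and 201 lower over all genes. Beside the 1.92% and 0.153% that edgeR called over all genes, its counts in the lists of this paragraph are too small to be read as a difference.

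**Figure D5:**
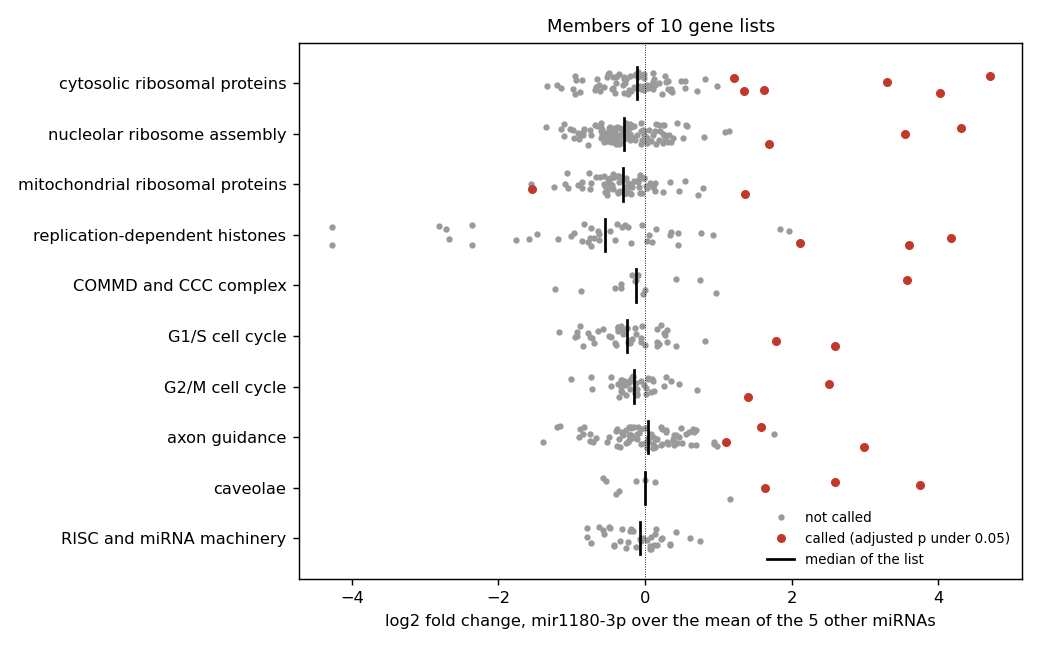
Log2 fold change, mir1180-3p over the mean of the other 5 miRNAs (x axis), of each tested member of 10 gene lists, with called genes in red, others in grey and the median of each list as a black bar. The bars stay between -0.55 and 0.04, and the red points of the ribosomal, nucleolar, histone and COMMD rows stand apart from their lists.

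Further higher genes, chosen after their values were seen, included regulators of growth and transcription. VEGFA, the angiogenic growth factor, stood at 538 and 636 CPM against 76.8 to 117 CPM with a median of 93.0 (2.63 ± 0.22, adjusted p = 1.1e-06). CDYL, a chromodomain corepressor, stood at 460 and 479 CPM against 41.3 to 91.2 CPM (2.76 ± 0.23). AMD1, which makes the propylamine donor for polyamines, stood at 3497 and 3807 CPM against 437 to 956 CPM (2.44 ± 0.22). The reference libraries of these 3 stay well below both mir1180-3p libraries. The transcription factors JUNB, DLX1 and KLF4 had log2 fold changes of 2.75 ± 0.32, 2.42 ± 0.25 and 2.30 ± 0.27, with replicates over 1.5-fold apart for JUNB and KLF4. WSB2, ARPC2 of the actin-nucleating complex, and the splicing kinase SRPK2 had 2.57 ± 0.21, 2.72 ± 0.22 and 2.24 ± 0.25. CHURC1, at 1306 and 4372 CPM, and the readthrough locus CHURC1-FNTB, at 605 and 2053 CPM, overlap and can share reads. Their log2 fold changes of 2.74 and 2.76 leaned on replicate 2, without which they were 1.62 and 1.63, still called. Over the 339 higher genes, the replicates were within 1.5-fold of each other in 209 and over 3-fold apart in 34. By their median in the other 10 libraries 100 of the 339 were under 5 CPM (29.5%, against 35.8% of the genes tested) and 63 at 100 CPM or more (18.6% against 13.1%).

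Of 5 genes that other studies had named as targets of mir1180, listed from memory, TNIP2 was called, beside 1.92% called higher over all genes. A list of 5 is too short to be read against that share. TNIP2, an inhibitor of NF-κB signalling, stood at 181 and 178 CPM against 30.6 to 99.3 CPM with a median of 69.8, a log2 fold change of 1.51 ± 0.30 (adjusted p = 0.0078). Its call was lost when either mir1180-3p library was left out. OTUD7B, a deubiquitinase in the same pathway, stood at 38.7 and 31.1 CPM against 8.81 to 30.8 CPM with a median of 23.0, at 0.71 ± 0.36 (adjusted p = 0.39). NKIRAS2, SFRP1 and CDKN1A had values of 0.51 ± 0.31, 0.39 ± 0.36 and -0.31 ± 0.44, with adjusted p of 0.49, 0.68 and 0.8 by edgeR. The list names mir1180 and does not say whether those studies concerned mir1180-3p itself. Both libraries of OTUD7B lay just above the other 10, as in 2.79% of all genes tested. Those of NKIRAS2, SFRP1 and CDKN1A overlapped with the other 10.

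The 27 lower genes included a receptor phosphatase, a Polycomb protein and a mitochondrial ferredoxin with its reductase. Their highest level in a mir1180-3p library was 80.0 CPM, and together they took 0.0329% and 0.0277% of the counts with mir1180-3p and between 0.0806% and 0.154% in the other 10. PTPRG, a receptor tyrosine phosphatase, stood at 27.5 and 29.1 CPM against 32.4 to 318 CPM with a median of 88.1, a log2 fold change of -1.94 ± 0.45 (adjusted p = 0.025). RING1, a Polycomb ubiquitin ligase, stood at 5.21 and 5.00 CPM against 5.61 to 53.2 CPM with a median of 17.4 (-1.94 ± 0.47, adjusted p = 0.037). FDXR, which feeds electrons to mitochondrial ferredoxin, stood at 11.3 and 4.78 CPM against 13.5 to 50.4 CPM with a median of 31.2 (-1.95 ± 0.48, adjusted p = 0.041), and FDX1L, a mitochondrial ferredoxin, had -1.86 ± 0.44. In PTPRG and RING1 the lowest reference library came close to both mir1180-3p libraries. SKAP1, TCEA3, TMEM180 (now SLC68A1) and ZFPL1 had -2.57 ± 0.63, -2.41 ± 0.60, -2.13 ± 0.45 and -1.97 ± 0.46. All 8 lost their calls when either mir1180-3p library was left out, and the number of lower genes was then 1 without replicate 1 and 0 without replicate 2. No window of a lower gene held the seed match in its first 50 bases.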

How the data were processed

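The authors deposited raw read counts per gene in 1 table, with a RefSeq mRNA and symbol for each of 19077 entries and a column for each library. TopHat2 and hg19 are named in the submitters' processing notes; the labels give neither versions nor the counting tool, the strand setting or the sequencer of these 12 libraries. Symbols were matched by accession to RefSeq for 18560 entries.

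From these counts, edgeR 4.0.16 (R 4.3.3) kept genes by filterByExpr, normalised by trimmed means of M values and ran robust, two-sided quasi-likelihood F tests with Benjamini-Hochberg adjustment over 17658 genes. All adjusted p-values are from that fit. Errors of log2 fold changes are its standard errors. DESeq2 1.42.0 was an alternative. The steps were tested on simulated data.

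Named genes were the 24 largest increases and 8 largest decreases among called genes with a mean of at least 5 CPM and both mir1180-3p libraries beyond all 10 others, up to 5 called genes per list by adjusted p, all called ribosomal and nucleolar members, and the reported targets. Genes with a seed match were added after their values were seen. The comparison, lists and naming rule were chosen with earlier results of these data known. Lists are described by counts and medians, without tests. Seed matches were searched in the first RefSeq start window listed per gene.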

Additional observations from a re-analysis of the deposited data

How the results depend on the processing

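No named gene that was called changed direction in the 26 other settings. C1orf185, CD5 and KRTAP12-3 are not counted among the named genes here. Of 101 named genes that were called, 59 kept the call in every setting, among them 21 of the 24 leading genes; PTRF lost it without replicate 2, and C7orf58 and KCNE2 without replicate 1, of mir1180-3p. The count of lower genes moved most: 16 with upper-quartile scaling, 48 with library totals alone, 201 with DESeq2, 67 with all 16 libraries in the fit, 57 with the Solid mir124-3p library added to the reference, 92 without the mir1301-3p group and 8 without the mir3613-5p group. DESeq2 called 693 genes in all, and the fit of all 16 libraries 675, of which 608 were higher. Under upper-quartile scaling the median over all genes went from -0.07 to 0.09 on the log2 scale. Leaving out 1 library gave 170 to 438 called genes, 170 to 402 higher and 0 to 57 lower. The lowest counts came without a mir1180-3p library; the lower genes were 7 without replicate 1 and 17 without replicate 2 of mir550-3p, 16 and 15 without replicates 1 and 2 of mir3613-5p, and 57 without replicate 1 of mir1301-3p. The share of higher genes with the seed match was 5.11% with all 16 libraries and 5.90% to 10.4% without 1 library; it was 4.20% in the 50 bases before the start and 0.382% on the other strand, both chosen after seeing the data. With a replicate block there were 376 higher and 32 lower genes and a share of 6.48%, and RPL21, FDXR and TCEA3 were not called. The block used the replicate numbers given here. The column headers number the mir1180-3p libraries downwards, and those of mir1260a-5p, mir1271-5p and mir3613-5p upwards. Same-numbered deviations of mir1180-3p correlated between -0.17 and -0.12 with those of mir1260a-5p, mir1271-5p, mir1301-3p and mir3613-5p. With mir550-3p the correlation was 0.07. A block with the mir1180-3p numbers exchanged was not fitted, so the block fit does not settle how these libraries pair. The 6 pairs among mir1260a-5p, mir1271-5p, mir1301-3p and mir3613-5p correlated between 0.23 and 0.40. The cause of these shifts was not tested.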

Other observations

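The leading genes can also be read in the mir124-3p libraries, which were left out of the main comparison and differ in platform. Scaled over all 16 libraries, RPL19 stood at 56913 and 52281 CPM with mir1180-3p, at 1178 CPM in the Solid library of mir124-3p and at 4356, 6699 and 4213 CPM in its 3 Illumina libraries. DCAF13 stood at 1906 and 2224 CPM with mir1180-3p, at 47.5 CPM in the Solid library and at 48.2, 56.7 and 53.9 CPM in the Illumina libraries. COMMD8 stood at 87.0 CPM in the Solid library and at 46.2, 55.9 and 47.2 CPM in the Illumina libraries. None of these 4 libraries reached the mir1180-3p level for these 3 genes.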
